A study of Mus musculus with 24 samples.

Results

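The mitochondrial fatty acid beta-oxidation enzymes were followed here as 10 genes, taken by symbol from a table of 35275 genes, and all 10 symbols were found once. Liver RNA came from male mice of 8 to 10 weeks of age on chow diet, fasted for 24 h, and was sequenced in 24 libraries, 4 from each of 6 genotypes on the C57BL/6 strain. The groups were control (labelled Wild type and, per the study, Tsc1 f/f; Cpt2 f/f littermates), Tsc1 L-/-, Cpt2 L-/-, the combined Tsc1Cpt2 L-/- (DKO), PPAR-a KO (Ppara KO) and Cpt2L-/- Ppara KO (Cpt2 Ppara KO). In the L-/- alleles Albumin-Cre deletes floxed exons in hepatocytes, so that other liver cells keep the gene. The Ppara KO groups, whose littermates and floxed alleles are not described in the sources used here, were compared with the same control and Cpt2 L-/- libraries as the other groups.

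Long-chain fatty acids enter mitochondria as carnitine esters: a carnitine palmitoyltransferase 1 on the outer membrane makes the ester and Cpt2 on the inner membrane turns it back into acyl-CoA. Beta-oxidation then removes acetyl-CoA in repeated turns of dehydrogenation, hydration, a further dehydrogenation and thiolysis, and in the fasted liver the acetyl-CoA feeds ketone body synthesis. Pparα is the nuclear receptor best known for inducing these genes in the fasted liver, and Tsc1 restrains mTORC1, the kinase complex that favors anabolic metabolism.

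By role, Cpt1a is the liver isoform of the entry enzyme and Cpt1b the muscle isoform. Acadvl, Acadl and Acadm are the very long-, long- and medium-chain acyl-CoA dehydrogenases of the first step. Hadha and Hadhb encode the alpha and beta subunits of the trifunctional protein, which carries out the remaining steps for long chains. Hadh is the 3-hydroxyacyl-CoA dehydrogenase for shorter chains, Acaa2 the thiolase of the last step, and Etfdh the inner membrane enzyme that passes electrons from the dehydrogenases to ubiquinone. On GRCm38, as the files give them, the genes lie on chromosome 1 (Acadl, 66830839 to 66863277), 3 (Acadm, 153922357 to 153944632; Etfdh, 79603788 to 79628863; Hadh, 131233419 to 131272101), 5 (Hadha, 30118301 to 30155162; Hadhb, 30155248 to 30184593), 11 (Acadvl, 70010183 to 70015411), 15 (Cpt1b, 89416405 to 89425863), 18 (Acaa2, 74779197 to 74806207) and 19 (Cpt1a, 3323301 to 3385732). Besides Cpt1b, 3 of the models overlap another gene. Acadvl shares 2119 bases with Dvl2 (76 to 192 counts) and Hadha 78 bases with Gareml (0 to 2 counts), both on the opposite strand. Whether their reads were told apart depends on the strand setting of the counting, which is not given. Acadl shares 495 bases with the pseudogene Gm15793 on the same strand (0 to 18 counts), and reads from there cannot be fully told apart.

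RefSeq promoter windows on GRCm38.p6, 300 bases that end 50 bases into the transcript, were read for 8 of the 10 genes. They were searched on both strands for AGGTCA, the core hexamer of many nuclear receptor sites, for its direct repeat with any 1 base between the copies, the kind of site that Pparα and its partner Rxr bind (DR1), for the same repeat with the fourth base of each copy open, which includes DR1, and for TNAAGGTCA, the element of the estrogen-related receptors, which contains the hexamer. The hexamer was found in 3 of 8 windows (Acadm, Acadvl and Cpt1a), beside 16.2% of 32544 windows of all genes. DR1 was found in 0 of 8, beside 0.0399% of all windows, the looser repeat in 0 of 8, beside 0.384%, and the receptor element in 0 of 8, beside 1.28%. These counts describe the letters in short windows and nothing further upstream or in introns. The windows with the hexamer are printed 5′ to 3′ on the gene's own strand, with the hexamer or its reverse complement in capitals, together with the window of Hadhb, which shares 228 bases with that of Hadha because these genes start head to head. They lie at chr3:153944594-153944893 on the minus strand (Acadm), chr11:70015379-70015678 on the minus strand (Acadvl), chr19:3323051-3323350 on the plus strand (Cpt1a) and chr5:30155003-30155302 on the plus strand (Hadhb), and the capitals stand at positions -249 to -244, -87 to -82 and -94 to -89 from the start sites of Acadm, Acadvl and Cpt1a.
Acadm: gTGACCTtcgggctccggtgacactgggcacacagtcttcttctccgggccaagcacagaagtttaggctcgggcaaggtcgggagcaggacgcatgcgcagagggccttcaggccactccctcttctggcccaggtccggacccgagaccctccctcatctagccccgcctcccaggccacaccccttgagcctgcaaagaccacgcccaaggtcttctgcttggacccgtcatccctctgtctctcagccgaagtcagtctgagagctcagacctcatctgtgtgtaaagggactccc
Acadvl: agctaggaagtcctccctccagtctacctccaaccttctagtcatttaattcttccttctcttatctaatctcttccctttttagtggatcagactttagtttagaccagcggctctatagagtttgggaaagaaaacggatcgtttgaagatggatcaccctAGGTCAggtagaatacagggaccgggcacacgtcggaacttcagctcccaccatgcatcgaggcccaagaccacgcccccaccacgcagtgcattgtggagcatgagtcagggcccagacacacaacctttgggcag
Cpt1a: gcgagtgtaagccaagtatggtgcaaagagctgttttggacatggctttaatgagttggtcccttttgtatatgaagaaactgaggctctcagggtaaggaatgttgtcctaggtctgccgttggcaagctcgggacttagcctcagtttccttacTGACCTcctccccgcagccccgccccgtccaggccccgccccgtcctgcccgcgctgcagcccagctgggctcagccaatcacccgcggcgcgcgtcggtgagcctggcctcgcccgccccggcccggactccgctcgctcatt
Hadhb: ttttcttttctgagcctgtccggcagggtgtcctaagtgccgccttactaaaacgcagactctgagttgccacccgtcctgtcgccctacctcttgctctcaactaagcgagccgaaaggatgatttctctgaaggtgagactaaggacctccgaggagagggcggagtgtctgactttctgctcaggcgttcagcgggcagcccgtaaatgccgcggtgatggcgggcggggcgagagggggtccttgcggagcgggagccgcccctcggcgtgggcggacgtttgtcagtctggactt

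Total counts per library ranged from 14470968 to 20371204. Levels are given as CPM, the counts after scaling by the trimmed mean of M-values (TMM). Control livers had 38.5 ± 1.32 CPM of Tsc1, Tsc1 L-/- livers 24.5 ± 4.56 and DKO livers 16.4 ± 1.24 (SD, n = 4). Ppara was at 13.2 to 90.0 CPM in the 8 Ppara KO libraries and at 138 to 383 CPM in the other 16. The Cpt2 gene did not mark its deletion, with 98.6 ± 7.04 CPM in controls and 91.7 ± 10.4 CPM in Cpt2 L-/- livers, and counts per exon were not analysed here. Of 7 hepatocyte markers found, none was at 0 in any group, and their summed median was 68000 CPM in control, 53400 in Tsc1 L-/-, 50300 in Cpt2 L-/-, 29100 in DKO, 70600 in Ppara KO and 44400 in Cpt2 Ppara KO livers. Among the other cells of the liver, the summed medians of control, Tsc1 L-/-, Cpt2 L-/-, DKO, Ppara KO and Cpt2 Ppara KO were, in this order, 225, 230, 219, 109, 191 and 268 CPM for Kupffer cell markers, 276, 314, 275, 244, 267 and 211 CPM for endothelial, 240, 202, 187, 156, 251 and 194 CPM for stellate, 22.9, 28.7, 14, 20.6, 21.0 and 13.4 CPM for cholangiocyte and 2.97, 1.91, 1.93, 1.73, 1.21 and 2.60 CPM for lymphocyte markers. The median hepatocyte sum was below control in every group with a Cpt2 or Tsc1 deletion, and its part in the results on the enzymes was not tested. In bulk liver, fewer cells and less RNA of the marker genes per cell cannot be told apart.

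The first library of Cpt2 Ppara KO stood apart, and that of Ppara KO had the highest Cpt2 and Ppara of its group. Whether either holds RNA of another genotype was not tested, so that the values of these groups carry that doubt. The library labelled Cpt2 Ppara KO replicate 1 had Ppara at 90.0 CPM against 26.2 to 45.7 CPM in the other 3, Cpt2 at 123 CPM against 31.4 to 39.1 CPM, and Tsc1 at 23.8 CPM against 42.4 to 50.1 CPM. The library labelled Ppara KO replicate 1 had Cpt2 at 94.9 CPM against 39.8 to 51.4 CPM and Ppara at 44.6 CPM against 13.2 to 38.1 CPM. It was less set apart, as the 38.1 CPM of Ppara belong to replicate 4. Over all genes, replicate 4 differed from replicates 2 and 3 (chi-square per degree of freedom 136 and 103) about as much as replicate 1 did (149 and 112). The calls and main values that rest on these groups are therefore also given without both libraries, except for the genes most like the enzymes in pattern.

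Per unit length, Acaa2 had the highest mean of the 10 transcripts in every group, with a range that overlapped the next gene's in all groups but control and Tsc1 L-/-. In control livers its level was 613 ± 98.0 FPKM (counts scaled by gene length and total count; SD, n = 4). It was followed by Acadm at 344 ± 52.5 FPKM and Cpt1a at 281 ± 40.7 FPKM, whose ranges overlapped. Acadl (193 ± 22.2 FPKM), Hadha (182 ± 20.4 FPKM) and Acadvl (167 ± 16.7 FPKM) formed a middle group in which each neighbor in the order overlapped the next, and Acadvl was above Hadh without overlap. Hadh (117 ± 17.8 FPKM), Etfdh (105 ± 14.9 FPKM) and Hadhb (75.4 ± 13.2 FPKM) were lower, again with overlapping neighbors. Cpt1b was at 0.152 ± 0.048 FPKM, and the Cpt1a to Cpt1b ratio in control livers ran from 1470 to 2540. Hadha exceeded Hadhb, its partner subunit, 2.44 ± 0.233 times in control livers and 2.44 to 2.57 times on average in the other groups except Cpt2 Ppara KO, where the mean ratio was 1.79 ± 0.0835. The ratio in Cpt2 Ppara KO libraries, 1.69 to 1.89, lay below the lowest ratio of each of the other 5 groups, of which Ppara KO, at 1.90 to 3.81, came closest. Without the first libraries the mean ratio was 1.82 ± 0.0644 in Cpt2 Ppara KO and 2.62 ± 1.04 in Ppara KO (n = 3).

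**Figure D1:**
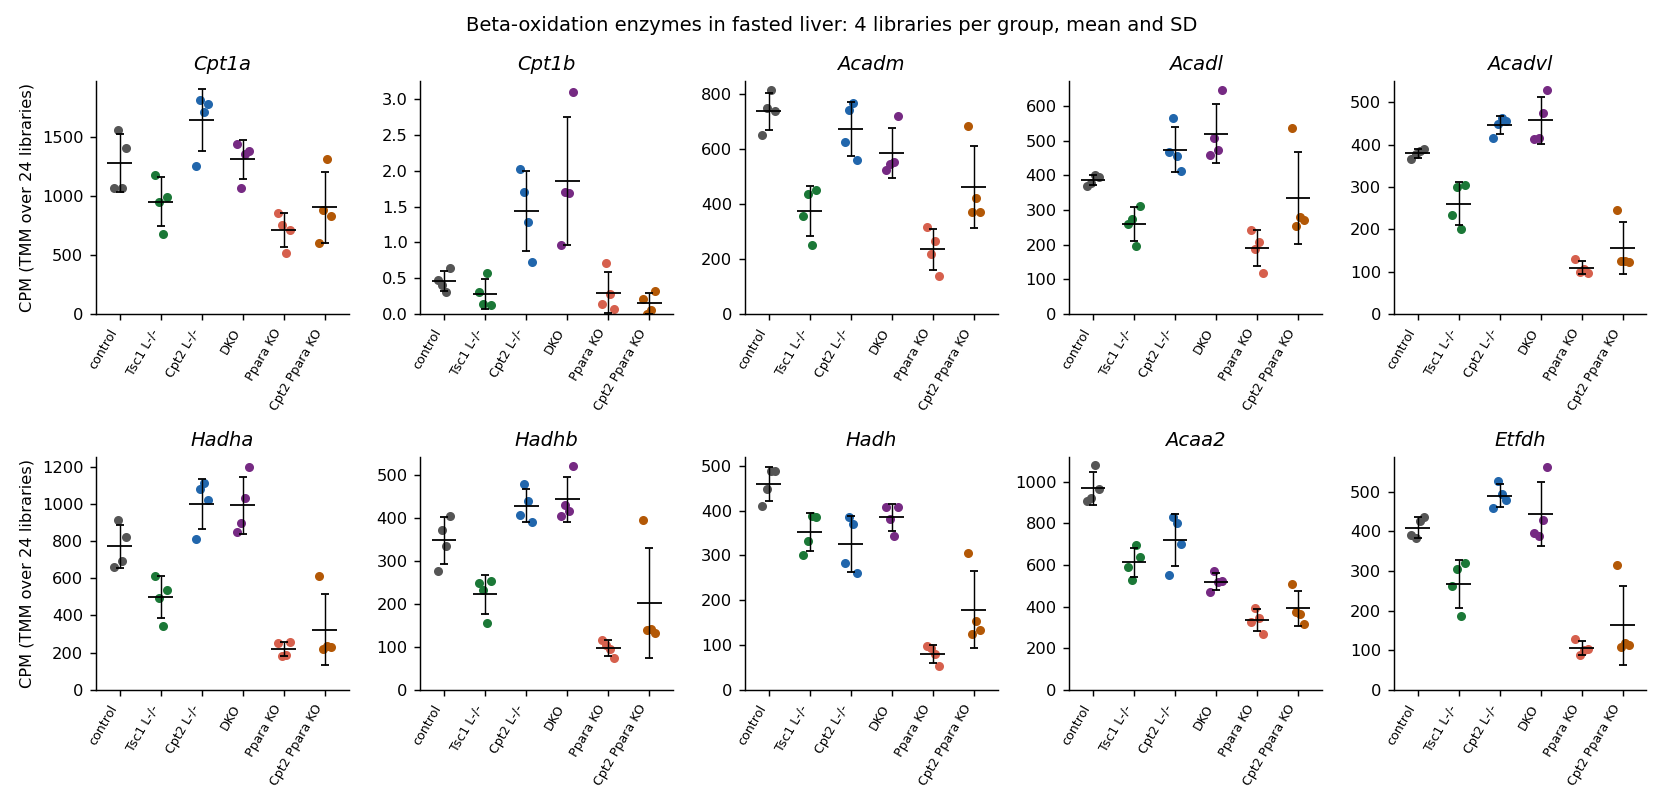
Level of each of the 10 enzymes in each library, in CPM after TMM scaling over 24 libraries; dots are libraries, the horizontal bar is the mean and the error bar 1 SD of 4 libraries. Ppara KO has the lowest mean for 9 of the enzymes, all but Cpt1b, and a single Cpt2 Ppara KO library lies far above the other 3 for most of them.

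Loss of Tsc1 in the fasted liver was compared with control to see how mTORC1 activation bears on these enzymes. The first-step dehydrogenases, the trifunctional protein, the last thiolase and Etfdh all fell. Of the 10 genes, 7 were lower and 0 higher at an adjusted p-value under 0.05, beside 6.64% of all 13641 genes tested that were called in either direction and 2.48% called lower. The median log2 difference was -0.62 over the 10 enzymes and 0.01 over all genes tested.

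Acadm, the medium-chain dehydrogenase, was at 649, 747, 813 and 737 CPM in control livers and at 356, 436, 251 and 452 CPM in Tsc1 L-/- livers. Every Tsc1 L-/- library lay below every control library. Its log2 difference was -0.97 ± 0.17 (SE; adjusted p = 0.0021), a level 1.96-fold lower. Acaa2, which releases acetyl-CoA at the end of each turn, was at 908, 922, 1080 and 965 CPM in controls and 588, 530, 695 and 640 CPM in Tsc1 L-/- livers, again without overlap (log2 difference -0.65 ± 0.14, adjusted p = 0.00788). Hadhb, the thiolase subunit of the trifunctional protein, was at 277 to 404 CPM in controls and at 156 to 252 CPM in Tsc1 L-/- livers. The groups did not overlap (log2 difference -0.64 ± 0.16, adjusted p = 0.0184).

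Hadha (-0.63 ± 0.17, adjusted p = 0.0357), Etfdh (-0.61 ± 0.16, adjusted p = 0.0254), Acadl (-0.57 ± 0.15, adjusted p = 0.0282) and Acadvl (-0.54 ± 0.13, adjusted p = 0.0197) also fell on the log2 scale. The entry enzyme Cpt1a did not pass, at 1070, 1560, 1070 and 1400 CPM in controls and 1180, 948, 678 and 992 CPM in Tsc1 L-/- livers (-0.42 ± 0.18, adjusted p = 0.187), and the groups overlapped. Hadh did not pass either (-0.38 ± 0.14, adjusted p = 0.115), although its groups did not overlap, nor did Cpt1b (-0.67 ± 0.56, adjusted p = 0.543). In all, 8 of 10 enzymes had no overlap between groups, beside 12.1% of all genes tested (5.37% with the lower level in Tsc1 L-/-), and all 10 estimates were below 0. The calls of Acadm and Acaa2 held under every alternative run, whereas the count of enzymes called lower was 2 without control replicate 4, 3 without control replicate 3, 4 without control replicate 2, Tsc1 L-/- replicate 1 or Tsc1 L-/- replicate 3, and 2 in a fit of all 24 libraries. Beside these counts, 1.59%, 1.65%, 1.49%, 2.09%, 2.71% and 0.922% of all genes tested were called lower, in the same order. With 1 library left out at a time, Acadl lost its call without control replicate 1, 2, 3 or 4 or Tsc1 L-/- replicate 1 or 3 (adjusted p of 0.0529 to 0.0737), and Hadha without control or Tsc1 L-/- replicate 2, 3 or 4 (adjusted p of 0.0528 to 0.116). Etfdh lost it without control replicate 3 or 4 or Tsc1 L-/- replicate 1 or 3 (adjusted p of 0.0502 to 0.075), Acadvl without control replicate 3 or 4 or Tsc1 L-/- replicate 1 (0.0519 to 0.0571), and Hadhb without control replicate 2 or 4 (0.0546 and 0.0703). Hadha also lost its call with the replicate number as a block (adjusted p = 0.0523), and Acadl on both FPKM scales (adjusted p = 0.0648 and 0.0625).

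Of 20 other genes of mitochondrial import and oxidation, 7 were lower, 1 was higher and 12 did not pass: the carnitine transporter Slc22a5 (-1.26 ± 0.23), the acyl-CoA synthetase Acsl1 (-1.02 ± 0.25), the carnitine-acylcarnitine translocase Slc25a20 (-0.76 ± 0.13), the auxiliary enzymes Decr1, Eci1 and Eci2 (-0.80, -0.69 and -0.80) and Acad11 (-0.45 ± 0.12) fell, and Cpt2 rose by 0.51 ± 0.14 on the log2 scale. Among 14 regulators, 2 were higher and 1 lower. Acacb, which makes the malonyl-CoA that inhibits Cpt1, rose by 1.30 ± 0.27 and the coactivator Ppargc1b by 1.05 ± 0.23, whereas Creb3l3, a liver transcription factor that works with Pparα in fasting, fell by 0.41 ± 0.11. Ppara itself was at 259 ± 28.6 CPM in controls and 196 ± 47.3 CPM in Tsc1 L-/- livers (adjusted p = 0.205).

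**Figure D2:**
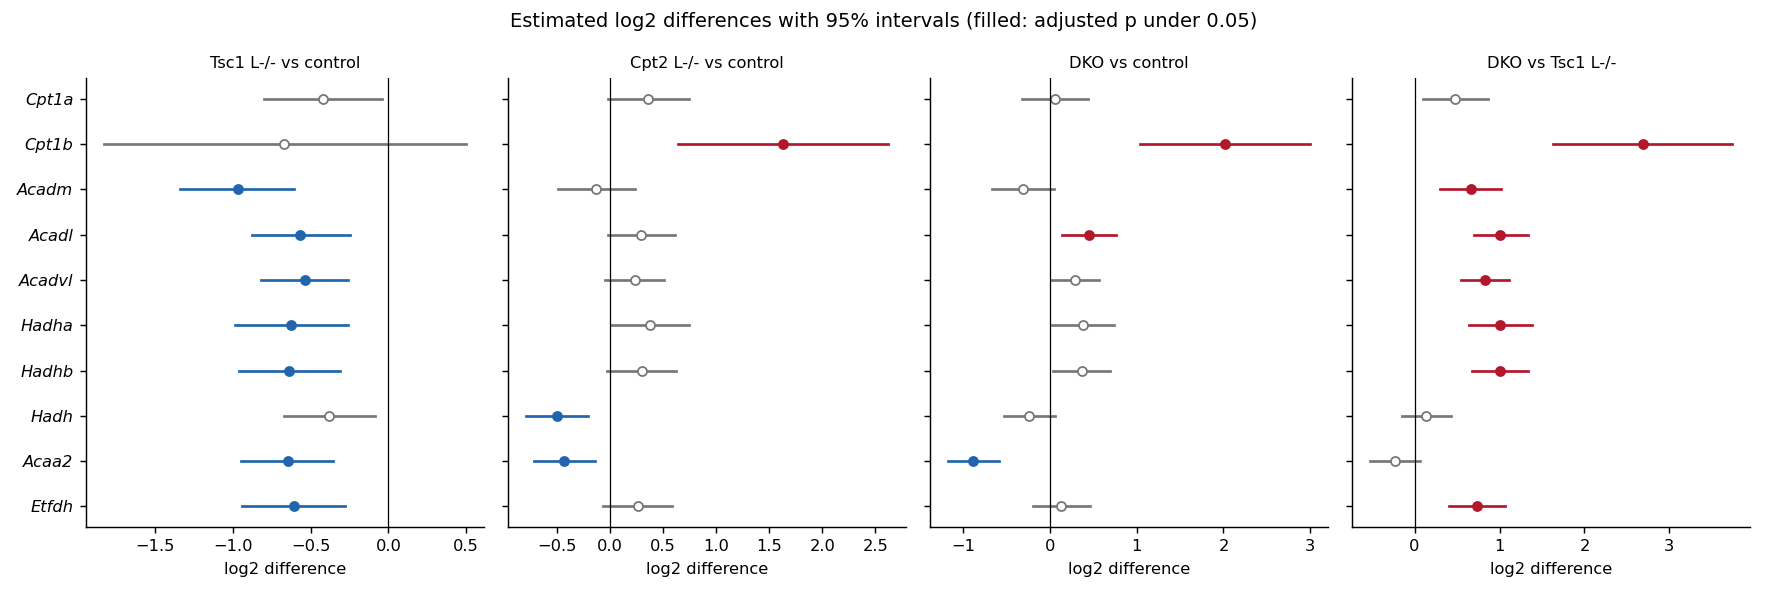
Estimated log2 differences of the 10 enzymes in 4 comparisons among Tsc1 L-/-, DKO, Cpt2 L-/- and control livers, with 95% intervals from edgeR; filled points passed an adjusted p of 0.05, blue lower and red higher. The scale differs between panels; 7 enzymes are blue in the first panel and 7 are red in the last.

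Cpt2 L-/- livers were compared with control to see how a block of long-chain fatty acid import bears on these enzymes. Cpt1b was higher, Hadh and Acaa2 were lower, and the other 7 did not pass: 1 enzyme rose and 2 fell, beside 31.0% of all genes tested that were called, 16.2% higher and 14.9% lower. The median log2 difference was 0.27 over the 10 enzymes and -0.02 over all genes. The share of enzymes called was thus near that of all genes, and the estimates ran in both directions.

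Hadh was at 409, 447, 489 and 489 CPM in controls and 282, 386, 370 and 261 CPM in Cpt2 L-/- livers. All 4 Cpt2 L-/- libraries lay below control (log2 difference -0.50 ± 0.14, adjusted p = 0.0103). Acaa2 was at 554, 833, 800 and 701 CPM in Cpt2 L-/- livers, below the 908 CPM of the lowest control (-0.43 ± 0.14, adjusted p = 0.0248). Both calls were lost in the fit of all 24 libraries, which left 1 enzyme called beside 20% of all genes, and on both FPKM scales, and that of Acaa2 also without control replicates 3 or 4 or Cpt2 L-/- replicates 1 or 4 (adjusted p of 0.0592 to 0.0965). Among the 7 that did not pass, Hadha was at 1000 ± 135 CPM against 771 ± 116 CPM in control (0.38 ± 0.17, adjusted p = 0.106), Cpt1a at 1640 ± 261 against 1280 ± 246 CPM (0.36 ± 0.18, adjusted p = 0.143), Acadl at 474 ± 65.6 against 386 ± 14.7 CPM (0.29 ± 0.15, adjusted p = 0.142) and Acadvl at 445 ± 21.1 against 379 ± 10.8 CPM (0.23 ± 0.13, adjusted p = 0.209). The log2 differences of the other 3 were 0.30 (Hadhb), 0.26 (Etfdh) and -0.13 (Acadm). The 95% intervals ran from 0.01 to 0.74 for Hadha and from -0.05 to 0.51 for Acadvl, and on FPKM values, tested with limma, Hadha and Cpt1a passed. Of the 10 enzymes, 6 had no overlap between groups, beside 30.9% of all genes. These were Acadl, Acadvl, Hadh, Acaa2, Etfdh and Cpt1b, the last of which lends no support to the count.

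Cpt1b, the muscle isoform, is barely expressed in these livers, and its counts are given as such. It had 8, 6, 6 and 11 counts in the control libraries, 5, 2, 9 and 2 in Tsc1 L-/-, 38, 27, 22 and 13 in Cpt2 L-/-, 17, 33, 26 and 58 in DKO, 3, 9, 4 and 1 in Ppara KO and 3, 0, 1 and 7 in Cpt2 Ppara KO libraries. All 8 libraries of Cpt2 L-/- and DKO livers were above all control libraries, and no other group was. The log2 difference from control was 1.63 ± 0.47 in Cpt2 L-/- (adjusted p = 0.0136) and 2.02 ± 0.47 in DKO livers (adjusted p = 0.00267). Cpt1b passed the filter on low counts only through the groups where it is high. Its calls, estimates and lack of overlap are therefore a description and lend no support to the counts and medians of enzymes. Without it, 0 of 9 enzymes were higher and 2 lower in Cpt2 L-/- livers, and 1 was higher and 1 lower in DKO livers. Both calls held in each of 15 alternatives, no filter on low counts included (adjusted p of at most 0.0495 and 0.0144).

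The Cpt1b gene lies wholly within the table's model of Chkb, a choline kinase on the same strand, over 9459 bases, so the split of reads between them depends on the counting and Cpt1b is uncertain. Chkb, with 206 to 2512 counts, rose by 0.92 ± 0.21 in Cpt2 L-/- and by 0.94 ± 0.21 in DKO livers on the log2 scale. The Cpt1b to Chkb ratio of FPKM values was 0.0139 ± 0.00452 in control, 0.0218 ± 0.00463 in Cpt2 L-/- and 0.0282 ± 0.00656 in DKO livers. Muscle markers (6 genes) summed to at most 13 counts in any control, Tsc1 L-/-, Cpt2 L-/- or DKO library, with Myh7 at 0 in all 16, and to 444 counts in Cpt2 Ppara KO replicate 4, where Cpt1b had 7 counts. Brown adipocyte markers (3 genes) summed to 0 to 0.465 CPM in control, 0.235 to 6.15 CPM in Cpt2 L-/- and 0.130 to 1.75 CPM in DKO livers. Cidea was at 4 to 56 counts in Cpt2 L-/- libraries, and Ucp1 at 0 in control and DKO and at no more than 2 counts in Cpt2 L-/- libraries. Adipoq had 0 to 41 counts in Cpt2 L-/-, 0 to 5 in control and 0 to 1 in DKO libraries. The part of these markers in the Cpt1b counts was not tested.

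**Figure D3:**
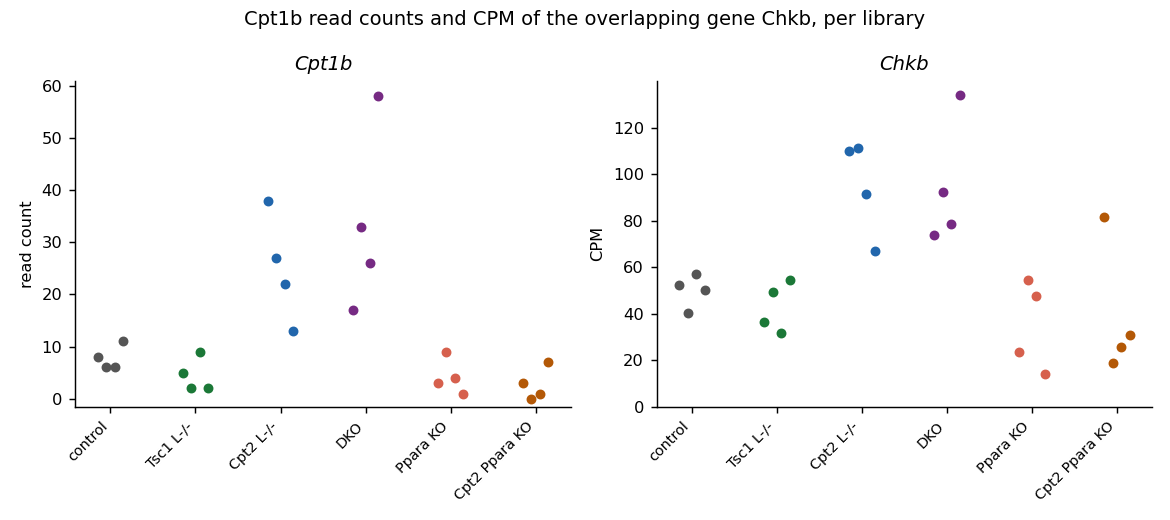
Read counts of Cpt1b (left) and CPM of Chkb, whose gene model contains Cpt1b on the same strand (right), with 1 dot per library and 4 libraries per group. Cpt2 L-/- and DKO libraries are above control in both panels, and no library exceeds 58 counts of Cpt1b.

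Of the 20 import and oxidation genes, 8 were higher and 3 lower in Cpt2 L-/- livers and 9 did not pass, led by the acyl-CoA thioesterase Acot2, which rose by 3.66 ± 0.80 on the log2 scale, the carnitine acetyltransferase Crat (1.34 ± 0.32) and Slc22a5 (1.26 ± 0.23). Slc25a20 rose by 0.36 ± 0.13. Etfa, Echs1 and Acad9 fell by 0.28, 0.40 and 0.46. Of the 14 regulators, 6 were higher and 2 lower. Acacb rose by 2.03 ± 0.27, and Mlycd, which removes malonyl-CoA, by 0.68 ± 0.12. Ppara did not pass, at 317 ± 46.7 CPM (adjusted p = 0.223).

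In DKO livers, 2 enzymes (Cpt1b and Acadl) were higher than control and 1 was lower, beside 36.4% of all genes tested that were called, 19.3% higher and 17.1% lower. Cpt1b rose, as its counts show, and 5 enzymes (Cpt1b, Acadl, Acadvl, Hadh and Acaa2) had no overlap between groups, beside 37.1% of all genes. Both shares are near those of all genes, and Cpt1b lends no support to either. Acadl, the long-chain dehydrogenase, was at 368 to 400 CPM in controls and at 457 to 645 CPM in DKO livers, with every DKO library above control (log2 difference 0.45 ± 0.15, adjusted p = 0.0252). This call was lost without control replicates 1 or 2 or DKO replicate 4 (adjusted p of 0.0514 to 0.102) and in the fit of all 24 libraries (0.43, adjusted p = 0.167). Acaa2 fell to 470, 571, 517 and 522 CPM, well under the 908 CPM of the lowest control (-0.88 ± 0.14, adjusted p = 9.84e-05).

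The remaining 7 did not pass in DKO against control, among them Hadhb (0.37 ± 0.15, adjusted p = 0.0712; 0.45 and adjusted p = 0.0484 without control replicate 4), Hadha (0.38 ± 0.17, adjusted p = 0.0939) and Acadm (-0.31 ± 0.17, adjusted p = 0.161). On FPKM values, tested with limma, 5 were higher and 1 lower, beside 27.9% of all genes called higher and 10.7% called lower on log2(FPKM + 1), and 27.8% and 10.8% on log2(FPKM + 0.1). That scale divides by total counts and placed the median of all genes 0.12 to 0.17 above 0 in this comparison, where TMM placed it at 0.02. Of the import and oxidation genes, 3 were higher and 2 lower, with Acot2 again in the lead (3.83 ± 0.81). Of the regulators, 2 were higher and 2 lower, and Acacb rose by 2.29 ± 0.27.

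DKO and Cpt2 L-/- livers were set side by side to see what Tsc1 loss did where Cpt2 was already lost. A single enzyme passed, beside 18.3% of all genes tested (7.4% lower), and 0 had no overlap between groups, beside 23.1% of all genes. Acaa2 was lower by -0.45 ± 0.14 on the log2 scale (adjusted p = 0.0305), with overlapping groups. That call was lost in 9 of 15 alternatives: the fit of all 24 libraries, both fits of FPKM values and the fits without Cpt2 L-/- replicates 2, 3 or 4 or DKO replicates 1, 3 or 4 (adjusted p of 0.0519 to 0.0942). The other 9 estimates ran from -0.30 (Cpt1a, 95% interval -0.68 to 0.08) to 0.39 (Cpt1b, -0.49 to 1.27), and Hadha was at 0.00 with an interval of -0.36 to 0.37. For Acadm, the interval of this difference was -0.54 to 0.18.

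Against Tsc1 L-/- livers, the DKO livers had 7 enzymes higher and 0 lower, beside 32.2% of all genes tested that were called and 16.9% called higher, and the same 7 had no overlap between groups, beside 30.6% of all genes (16.3% with the higher level in DKO). The trifunctional protein and Acadl had log2 differences of 1.01: Acadl (2.02-fold, log2 difference 1.01 ± 0.15, adjusted p = 6.37e-05), Hadha (1.01 ± 0.18, adjusted p = 0.000278) and Hadhb (1.01 ± 0.16, adjusted p = 9.97e-05). Acadvl (0.83 ± 0.13), Etfdh (0.74 ± 0.16) and Acadm (0.66 ± 0.17; adjusted p = 0.0508 in the fit of all 24 libraries) followed, and Cpt1b, which passed the filter only through groups other than Tsc1 L-/-, was at 2.69 ± 0.50. Without Cpt1b, 6 of 9 enzymes were higher, and the same 6 had no overlap. Hadha was at 613, 493, 345 and 538 CPM in Tsc1 L-/- and 850, 896, 1030 and 1200 CPM in DKO livers, without overlap. Cpt1a, at 1440, 1070, 1350 and 1380 CPM in DKO livers, missed the threshold (0.48 ± 0.18, adjusted p = 0.052) but passed without Tsc1 L-/- replicate 1 (0.60, adjusted p = 0.0232) or DKO replicate 2 (0.56, adjusted p = 0.04), in DESeq2 (adjusted p = 0.038) and on both FPKM scales, and Hadh (0.14 ± 0.14) and Acaa2 (-0.23 ± 0.14) did not pass. This comparison uses the Tsc1 L-/- libraries that the comparison with control also uses.

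Whether the Tsc1 effect depended on Cpt2 was tested as an interaction. None of the 10 enzymes passed in edgeR, beside 2.38% of all genes tested, whereas 7 had an unadjusted p under 0.05, beside 18.9% of all genes, and DESeq2 called 5 (Acadm, Acadl, Acadvl, Hadhb and Hadh), beside 6.0% of the genes it gave an adjusted p. All 10 edgeR estimates were above 0, with a median of 0.64 beside 0.00 over all genes. The estimate was 0.79 ± 0.24 for Acadm (adjusted p = 0.0881), 0.72 ± 0.21 for Acadl (adjusted p = 0.0756) and 0.71 ± 0.22 for Hadhb (adjusted p = 0.0916). For Cpt1a it was 0.12, with a 95% interval from -0.42 to 0.66, and for Acaa2 it was 0.20, from -0.21 to 0.61. Among the regulators Ppargc1b alone passed, at -1.59 ± 0.32.

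Ppara KO livers had the lowest group means of 9 enzymes, all but Cpt1b. All 9, which are those that could be tested, were lower than control and 0 higher, beside 27.5% of all genes tested that were called and 12.7% called lower, and all 9 had no overlap between groups, beside 30.8% of all genes (15.5% with the lower level in Ppara KO). Cpt1b was too low to be tested. The median log2 difference of the 9 was -1.81, beside 0.02 over all genes. These 9 calls held under every alternative run, the omission of both first libraries included, where 14.5% of all genes were called lower.

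Hadh, the short-chain dehydrogenase, had the largest fall. It was at 409, 447, 489 and 489 CPM in controls and 96.8, 92.5, 79.1 and 53.0 CPM in Ppara KO livers. That is a log2 difference of -2.52 ± 0.21, or 5.73-fold lower (adjusted p = 6.32e-05), and -2.62 without the first libraries. Etfdh fell from 390, 383, 427 and 437 CPM to 128, 87.0, 100 and 104 CPM, 3.92-fold lower (-1.97 ± 0.16, adjusted p = 6.81e-05). The subunits of the trifunctional protein fell alike, Hadha 3.53-fold (-1.82 ± 0.19) and Hadhb 3.59-fold (-1.84 ± 0.19). Hadhb was at 115, 105, 94.8 and 72.9 CPM in Ppara KO livers, all under the 277 CPM of the lowest control.

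The dehydrogenases of the first step fell by unequal amounts. Acadvl was 3.50-fold lower (-1.81 ± 0.15, adjusted p = 6.7e-05), Acadm 3.15-fold lower (-1.65 ± 0.24, adjusted p = 0.00115) and Acadl 2.05-fold lower (-1.04 ± 0.21, adjusted p = 0.00562). Acaa2 was 2.92-fold lower (-1.54 ± 0.17, adjusted p = 0.0003). Cpt1a had the smallest fall, from 1070, 1560, 1070 and 1400 CPM to 858, 749, 516 and 708 CPM, 1.80-fold lower (-0.85 ± 0.21, adjusted p = 0.0154). The 95% interval of the Cpt1a difference, -1.33 to -0.38, lay apart from those of Hadh (-2.98 to -2.06) and Etfdh (-2.34 to -1.61), although the differences between genes were not tested. Without the first libraries the 9 differences ran from -0.96 (Cpt1a) to -2.62 (Hadh).

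The partner genes fell with them. Of 19 tested, 16 were lower and 0 higher, with Eci1 (5.23-fold lower), Hsd17b10 (5.22-fold lower) and Slc25a20 (3.99-fold lower) in the lead, the last from 230 ± 9.58 CPM in control to 57.8 ± 4.45 CPM. Cpt2 was lower by -0.76 ± 0.25. Without the first libraries 17 were lower and 0 higher, and Cpt2 was at -1.10 (adjusted p = 0.00101). Among the regulators, Ppara, the deleted gene, fell by 3.23 on the log2 scale, Ppargc1a, Creb3l3 and Sirt3 were lower, and Acacb was higher by 1.07 ± 0.26. Without the first libraries Ppara was at -3.57, Creb3l3 no longer passed (-0.40, adjusted p = 0.0583) and Ppargc1b was higher (1.27, adjusted p = 0.0212).

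In Cpt2 Ppara KO livers the enzymes were compared first with Cpt2 L-/- livers. With all 8 libraries, 5 enzymes were lower and 0 higher (Cpt1b, Acadvl, Hadha, Acaa2 and Etfdh), beside 13.0% of all genes tested that were called and 6.1% called lower, and the same 5 had no overlap between groups, beside 23.0% of all genes (11.5% with the lower level in Cpt2 Ppara KO). Cpt1b passed the filter only through the Cpt2 L-/- libraries, and without it 4 of 9 enzymes were lower, and the same 4 had no overlap. Without the first library of each Ppara KO group, an alternative chosen after the data were seen, all 10, or 9 of 9 apart from Cpt1b, were lower, beside 18.0% called and 8.93% called lower. Leaving out Cpt2 Ppara KO replicate 2 left 2 enzymes called, Acadvl and Cpt1b, beside 5.17% of all genes, and Cpt1b lends no support to that count. Hadha was then at -1.49 (adjusted p = 0.0522), Etfdh at -1.43 (adjusted p = 0.0552) and Acaa2 at -0.86 (adjusted p = 0.0846). Acaa2 was not called either without Cpt2 L-/- replicates 2, 3 or 4 or Cpt2 Ppara KO replicate 3.

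The first library was set apart from the other 3 in the trifunctional protein. Hadha was at 811, 1080, 1110 and 1020 CPM in Cpt2 L-/- livers and at 611, 222, 238 and 228 CPM in Cpt2 Ppara KO livers, where the first value belongs to the library labelled replicate 1. Its log2 difference was -1.63 ± 0.35 (adjusted p = 0.0147) with that library and -2.14 without it. Etfdh was at 459, 528, 493 and 478 CPM against 314, 108, 119 and 113 CPM (-1.59 ± 0.34, adjusted p = 0.0161; -2.11 without the library). Hadhb had 405, 477, 439 and 390 CPM against 394, 138, 142 and 132 CPM, so that the groups overlapped through the first library alone, and it moved from -1.09 ± 0.35 (adjusted p = 0.0626) to -1.64 without it. Hadhb was called in 9 of 17 alternatives (adjusted p of 3.02e-05 to 0.157 over the 17), among them DESeq2, the replicate block and both FPKM scales. Acadm and Acadl were at -0.55 and -0.50 with the library and -0.80 and -0.82 without it. Cpt1a moved the other way: it was at 1250, 1810, 1710 and 1780 CPM in Cpt2 L-/- livers and at 597, 879, 1310 and 827 CPM in Cpt2 Ppara KO livers, where the first library was the lowest, and the groups overlapped. Its log2 difference was -0.86 (adjusted p = 0.0574) with that library and -0.71 (adjusted p = 0.046) without it, and it was called in 9 of 17 alternatives, with adjusted p from 0.00698 to 0.146 over the 17. In these tallies the omission of both first libraries is the same fit as the omission of replicate 1, so that this fit is counted again.

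Of the 19 partner genes tested in this comparison 7 were lower and 0 higher, among them Acsl1 (-2.74 ± 0.25) and Crat (-2.15 ± 0.29). Of the regulators 5 were lower: Acacb (-1.55 ± 0.36), Mlycd (-0.90 ± 0.18), Ncor1, Creb3l3 and Ppara (-2.65 ± 0.34). Ppara is the deleted gene, so its fall follows from the genotype and lends no support to this count. Without the first libraries 15 of the 19 partner genes and 5 of the regulators, Ppara included, were lower and 0 higher. Acacb, which was higher than control in every other mutant group, was at 91.7 ± 42.7 CPM in Cpt2 Ppara KO and 65.7 ± 26.3 CPM in control livers, which were not tested against each other.

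Against Ppara KO livers, none of the 9 enzymes tested in Cpt2 Ppara KO livers passed in edgeR, beside 0.868% of all genes tested. Unadjusted p-values under 0.05 were obtained for 4 of them (Acadm, Acadl, Hadhb and Hadh), beside 30% of all genes, and the same 4 had no overlap between groups, beside 18.9% of all genes (9.26% with the higher level in Cpt2 Ppara KO). DESeq2 called 3, beside 15.8% of the genes it gave an adjusted p, and the fits of 16 and of 24 libraries called 4 each, beside 25.5% and 30.8%. With the replicate number as a block, edgeR called Acadm (adjusted p = 0.0436) and Hadh (adjusted p = 0.0388), beside 916 of all genes. All 9 estimates were above 0, with a median of 0.65 beside 0.00 over all genes. Hadh had the largest, 1.17 ± 0.33 (adjusted p = 0.07), with a 95% interval from 0.45 to 1.88. Without the first libraries 0 of the 9 passed, beside 4.72% of all genes tested, and Hadh was at 0.88 (adjusted p = 0.0667), while Hadha went from 0.58 to 0.15 and Etfdh from 0.65 to 0.24.

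**Figure D4:**
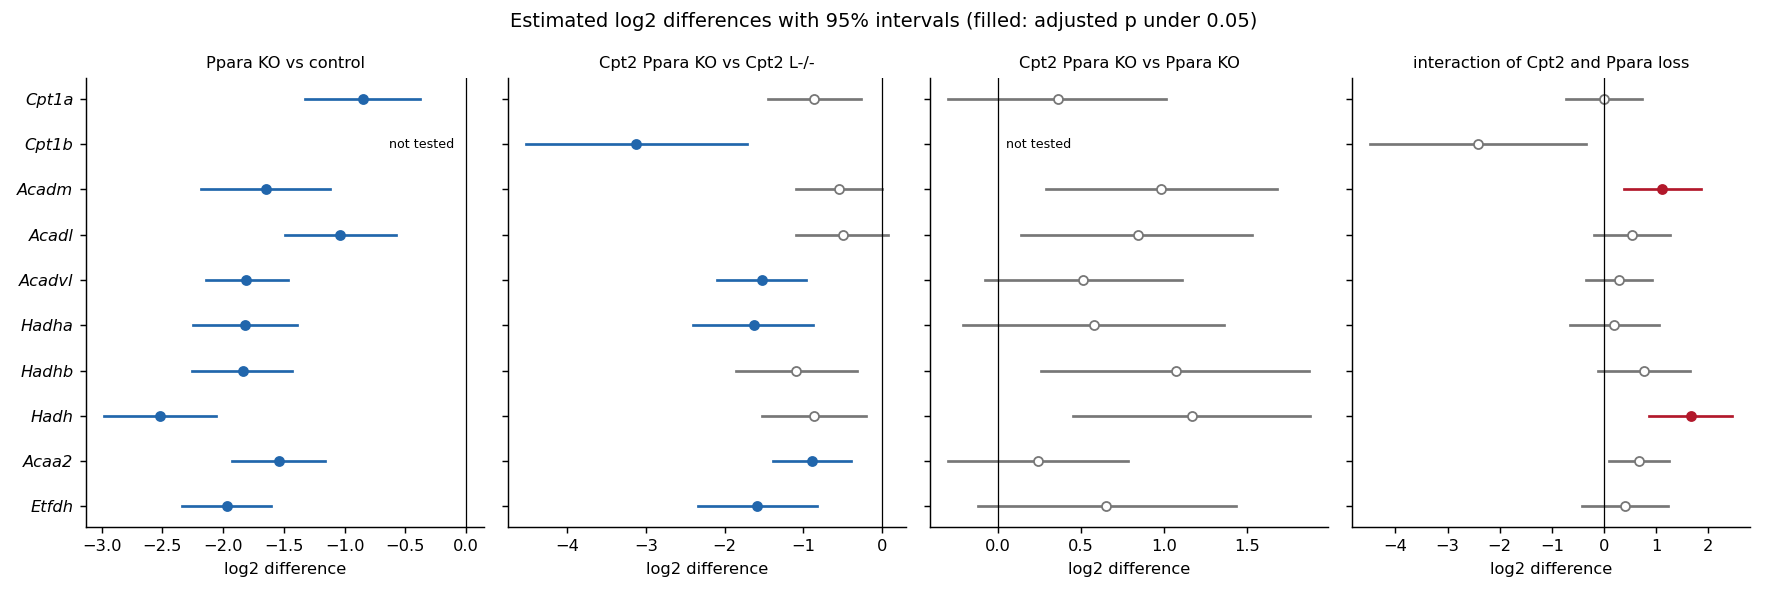
Estimated log2 differences of the 10 enzymes in the comparisons with Ppara KO groups and in the test of whether the Cpt2 effect depends on Ppara, with 95% intervals from edgeR and all libraries in; filled points passed an adjusted p of 0.05. The scale differs between panels; 9 enzymes are lower in Ppara KO, and Acadm and Hadh pass in the last panel.

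The effect of Cpt2 loss with and without Ppara differed for 2 of the 10 enzymes, beside 24.0% of all genes tested that were called and 12.0% called in that direction, which is near the share of enzymes. For Hadh the interaction was 1.67 ± 0.38 (adjusted p = 0.00564): Cpt2 loss lowered it where Ppara was intact, from 459 ± 38.8 to 325 ± 62.4 CPM, whereas without Ppara it was at 80.4 ± 19.7 CPM in Ppara KO and 179 ± 85.6 CPM in Cpt2 Ppara KO livers. For Acadm it was 1.12 ± 0.35 (adjusted p = 0.0291). Without the first libraries these were 1.38 (adjusted p = 0.00215) and 1.05 (adjusted p = 0.0113), beside 27.4% of all genes called and 13.2% in that direction. The call of Acadm was lost without control replicate 3, Cpt2 L-/- replicates 1 or 4 or Ppara KO replicate 4 (adjusted p of 0.0518 to 0.0652), and that of Hadh under none of 24 alternatives. Cpt1b had an estimate in the other direction that did not pass (-2.42 ± 0.98, adjusted p = 0.0802). It passed in 5 of 24 alternatives: without Ppara KO replicate 4 (-2.74, adjusted p = 0.0486) or Cpt2 Ppara KO replicate 4 (-3.23, adjusted p = 0.0347), in DESeq2 (-2.48, adjusted p = 0.0459) and in limma on both FPKM scales (adjusted p = 0.0287 and 0.0401). Acaa2 did not pass (0.67, adjusted p = 0.0856) but was called in DESeq2 (0.66, adjusted p = 0.0427) and in the fit of all 24 libraries (0.65, adjusted p = 0.0448). The interval for Cpt1a was -0.73 to 0.73.

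Across libraries the enzymes moved together, as a description of 24 libraries that share groups and scaling. Pearson's r of log2 CPM between pairs of enzymes ran from 0.391 (Cpt1b and Acaa2) to 0.990 (Acadvl and Etfdh), and it was 0.961 for the subunits Hadha and Hadhb. The mean of the 10, each centered over the 24 libraries on the log2 scale, was 0.35 to 0.60 in control, -0.34 to -0.02 in Tsc1 L-/-, 0.54 to 0.87 in Cpt2 L-/-, 0.50 to 0.93 in DKO and -1.44 to -0.90 in Ppara KO libraries. In Cpt2 Ppara KO libraries it was 0.07 in the library labelled replicate 1 and -0.94, -0.74 and -0.76 in the others. The Tsc1 L-/- libraries, with Ppara at 138 to 254 CPM, were below every control library on this mean, and the DKO libraries, with Ppara at 168 to 269 CPM, were not.

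**Figure D5:**
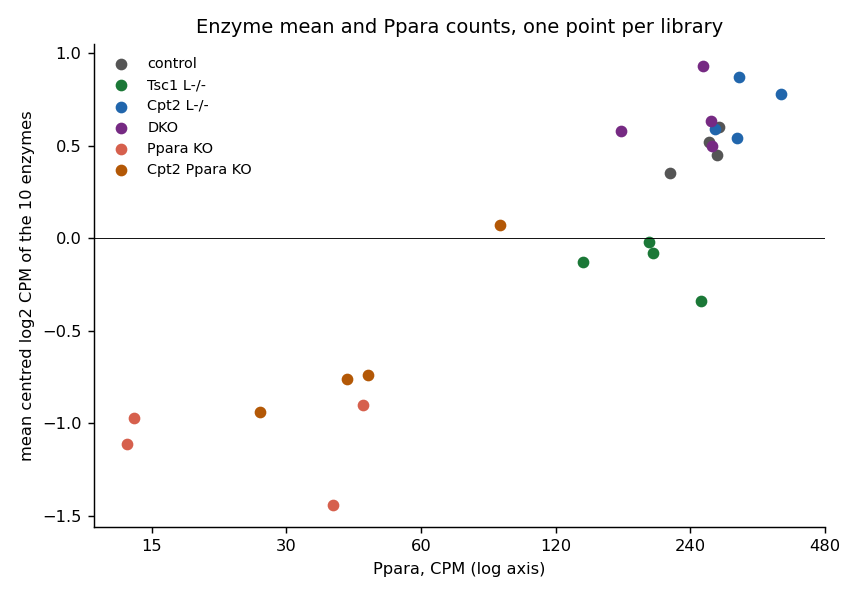
Mean of the 10 enzymes, as log2 CPM of each gene centered over 24 libraries, against the CPM of Ppara on a log axis, with 1 point per library. The 8 Ppara KO libraries lie left of all others; the highest of them, at 90.0 CPM of Ppara and a mean of 0.07, is the library labelled Cpt2 Ppara KO replicate 1, and Tsc1 L-/- libraries lie below the others at like levels of Ppara.

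Outside the fixed lists, the genes whose log2 CPM were most like the enzyme mean over the 24 libraries were Acot8 (r = 0.971), Chrna2 (0.967), Ehhadh (0.961), Retsat (0.960) and Hsd17b11 (0.960). Ehhadh, a peroxisomal beta-oxidation enzyme, was at 3320 ± 1180 CPM in control, 941 ± 699 in Tsc1 L-/-, 10300 ± 1580 in Cpt2 L-/-, 9740 ± 4230 in DKO, 123 ± 25.0 in Ppara KO and 999 ± 1700 CPM in Cpt2 Ppara KO livers. In Cpt2 Ppara KO the SD of Ehhadh exceeded its mean, so that this mean does not stand for the single libraries. It was not obtained without the first library. Acot8, a peroxisomal acyl-CoA thioesterase, was at 6.94 ± 1.21 CPM in Ppara KO, 16.6 ± 3.57 in Tsc1 L-/- and 25.5 ± 2.64 CPM in control livers. For Cpt1b alone the most alike were Hic2 (0.872), Lpcat3 (0.861) and Gpd2 (0.859), with no p-value attached to any of these.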

How the data were processed

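Liver RNA was sequenced by the study as single 75-base reads from stranded libraries. The authors deposited 2 kinds of value for each gene, unnormalized whole-number counts and FPKM, and the FPKM equal the counts divided by gene length and total count (largest relative deviation 9.11e-07). The submitters' notes name STAR 2.5, HTSeq 0.6.1, Bowtie 0.12.2, TopHat and others, in no stated order, and builds mm8 and mm9, whereas the deposited tables carry Ensembl identifiers and GRCm38 coordinates; the strand setting of the counting is not given in the sources used here.

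Groups and replicate numbers were taken from the labels. The labels number the libraries of a group without stating that each is a separate mouse, although the deposited columns carry different names; p-values measure the spread between these libraries, which may be technical. The main test was that of edgeR 4.0.16, run under R 4.3.3 (filterByExpr with a minimum count of 10 and a minimum total of 15, TMM, robust glmQLFit and glmQLFTest). Control, Tsc1 L-/-, Cpt2 L-/- and DKO libraries entered a fit of 16, each comparison with a Ppara KO group a fit of 8, and the test of the Cpt2 effect with and without Ppara a fit of 16. Each of 10 comparisons had its p-values adjusted over all genes tested (Benjamini-Hochberg), with a threshold of 0.05. CPM values were scaled by TMM over 24 libraries. None of 36 pairs of libraries within a group agreed within sampling noise. Total counts of 14470968 to 20371204 set the counting precision, which limits Cpt1b most.

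The genes named are the 10 enzymes, genes of the lists of 20 partners and 14 regulators, the deleted genes, Chkb and the genes most like the enzymes in pattern among those with a mean of at least 1 CPM. The enzymes and lists were chosen with earlier results of these data known. Marker lists covered hepatocytes, Kupffer, endothelial, stellate and bile duct cells, lymphocytes, muscle and brown adipocytes. Chkb was added after its overlap with Cpt1b was seen.

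Scripts were tested on simulated data. Of genes changed by a log2 difference of 1, edgeR recovered 63% for Tsc1 L-/- against control (13426 genes) and 22% for Ppara KO against control (12720 genes); at a log2 difference of 2 it recovered 91% and 84%. Of its calls, 2.53% and 8.62% were false, the latter above the nominal 5%, as were the 7.76% of limma for Ppara KO. DESeq2 1.42.0 made 13.7% and 19.5% false calls there; the limit that the simulation had to meet was then kept for edgeR and limma only, and DESeq2 served as an alternative. The other alternatives were RLE size factors, no filter, other sets of libraries in the fit, the replicate number as a block, limma 3.58.1 on log2(FPKM + 1) and log2(FPKM + 0.1), each library left out, and, chosen after the data were seen, both first Ppara KO libraries left out. Promoter windows are from RefSeq. Figures were drawn with matplotlib 3.10.9.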

Additional observations from a re-analysis of the deposited data

Results flagged for a closer look

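In groups of 4, a library was singled out when its gap to the nearest other exceeded Dixon's 95% critical share of the group's range, over 60 sets of gene and group, of which chance flags about 1 in 20. In the library labelled Cpt2 Ppara KO replicate 1, 7 of the enzymes were far above the other 3 libraries: Acadm at 683 CPM, Acadl at 535 CPM, Acadvl at 246 CPM, Hadha at 611 CPM, Hadhb at 394 CPM, Hadh at 306 CPM and Etfdh at 314 CPM. These are values of 1 library and not 7 separate events. The same library had the highest Ppara (90.0 CPM) and Cpt2 (123 CPM) and the lowest Tsc1 (23.8 CPM) of its group. Acadm at 721 CPM in DKO replicate 4 also stood apart from the other DKO libraries, at 525 to 551 CPM.

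The effect of Cpt2 loss differed with and without Ppara by 1.12 on the log2 scale for Acadm (adjusted p = 0.0291) and by 1.67 for Hadh (adjusted p = 0.00564), in edgeR's test of the difference itself. Of all genes tested 24.0% were called, 12.0% in that direction, which is near the share of enzymes. The call of Acadm was lost in 4 of 24 alternatives.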

How the results depend on the processing

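Ppara KO against control kept 9 enzymes called lower under every alternative, beside 2321 to 4602 of all genes called. DKO against Tsc1 L-/- kept a count within 1.5 times of 7, beside 2975 to 4650 of all genes. Over 1696 values of single enzymes under an alternative, 1564 kept their side of the threshold, 64 lost a call, 68 gained a call, and 0 called values turned direction. For Ppara KO against control and Cpt2 Ppara KO against Cpt2 L-/-, leaving out both first libraries is the same fit as leaving out replicate 1. These values therefore count that fit again. For Tsc1 L-/- against control the 7 enzymes, beside 906 of all genes called, became 2 with all 24 libraries in the fit, beside 400. With a library left out they became 2 to 6, beside 583 to 967. For Cpt2 L-/- against control the 3, beside 4235 of all genes, became 1 with all 24 libraries, beside 2798. On both FPKM scales the count stayed at 3, beside 4031 and 4073 of all genes. There 3 were higher and 0 lower, where the main fit had 1 higher and 2 lower. For DKO against control the 3, beside 4972 of all genes, became 6 on both FPKM scales, beside 5272 and 5269. For DKO against Cpt2 L-/- the 1, beside 2494 of all genes, became 0 on both FPKM scales and with all 24 libraries, beside 2290, 2245 and 1065. With a library left out it became 0 to 1, beside 1428 to 2498. The 0 for the interaction of Tsc1 and Cpt2, beside 324 of all genes, became 5 in DESeq2, beside 754. For Cpt2 Ppara KO against Cpt2 L-/- the 5, beside 1679 of all genes, became 8 in DESeq2, with all 24 libraries and with 16 libraries, beside 2847, 3239 and 2499. Without both first libraries, which here is the fit without Cpt2 Ppara KO replicate 1, it became 10, beside 2364. With a library left out it ran from 2 (without replicate 2, beside 682) to 10 (without replicate 1). For Cpt2 Ppara KO against Ppara KO the 0, beside 111 of all genes, became 3 in DESeq2, beside 2009. It became 4 with all 24 and with 16 libraries, beside 4311 and 3475. For the interaction of Cpt2 and Ppara the 2, beside 3270 of all genes, became 4 in DESeq2, beside 3861. With a library left out it became 1 to 3, beside 2396 to 3767 (1 without control replicate 3, Cpt2 L-/- replicate 1 or Cpt2 L-/- replicate 4). The count over all genes moved by over 1.5 times for some comparisons: from 906 to 400 (Tsc1 L-/- against control), 4235 to 2798 (Cpt2 L-/- against control), 2494 to 1065 (DKO against Cpt2 L-/-) and 324 to 65 (interaction of Tsc1 and Cpt2) with all 24 libraries, from 324 to 754 and from 1679 to 2847 (Cpt2 Ppara KO against Cpt2 L-/-) in DESeq2, and from 111 to between 2 and 4311 (Cpt2 Ppara KO against Ppara KO). With a library left out it also went from 1679 to between 625 (without Cpt2 L-/- replicate 3) and 2541 (without Cpt2 Ppara KO replicate 4), from 3559 to 2321 (Ppara KO against control, without control replicate 4), from 906 to 583 (without control replicate 3), from 2494 to 1428 (without DKO replicate 2) and from 324 to 150 (without DKO replicate 2). The cause of these shifts was not tested.

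With the replicate number as a block, the counts were 6, 3, 3, 1, 7, 0, 9, 7, 2 and 2 in the order of the report. Of all genes, 808, 4033, 4781, 2333, 4180, 270, 2915, 2156, 916 and 3307 were called beside them, in the same order. Same-numbered libraries did not deviate together (r of -0.255 to 0.165 over 8 comparisons), so the numbers do not pair the samples; the block moved the count by over 1.5 times only for Cpt2 Ppara KO against Ppara KO, from 0 to 2. Depth limits Cpt1b, with 0 to 58 counts, most: its log2 difference from control in Cpt2 L-/- livers ran from 0.38 on log2(FPKM + 1) to 1.86.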
